A study of Drosophila melanogaster with 2 samples.

Results

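The exonic peaks away from promoters are ChIP-seq peaks of the Huckebein fusion protein hkb-eGFP whose summit, the base with the most signal, lies in an annotated exon and more than 500 bp from every annotated transcript start other than those of transposable elements. There were 245 of them among the 7220 peaks of the list that combines both replicates (3.39%, 95% exact binomial interval 2.99 to 3.84, which covers counting error over peaks only). They fell into 50 peaks in 5′ untranslated regions (UTRs), 45 in coding exons, 75 in 3′ UTRs and 75 in other exons. Of the last, 72 lay in noncoding RNA genes, 2 in pseudogenes (CR43671 and CR42490), and 1, at CG5895, on a base of a stop codon, which the annotation counts neither as coding nor as untranslated. The data come from chromatin immunoprecipitation followed by sequencing (ChIP-seq) on whole Drosophila melanogaster embryos collected over 0 to 24 h of development. The transgenic flies, of the strain labelled hkb-GFP, carried an insertion that gives a fusion of Huckebein with eGFP, and chromatin was pulled down through the GFP tag. There was 1 group, hkb-GFP embryos, with 2 biological replicates and no second condition, and the labels do not give the sex of the embryos, the promoter of the fusion or the state of the native gene. No control experiment was used here. Values are the authors' signal values, which rank peaks within 1 list and have no unit in the sources used here, and the number of reads per library is unknown.

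Huckebein is a zinc finger transcription factor of the anterior and posterior poles of the early embryo. It is switched on there by the receptor tyrosine kinase Torso, whose signal passes through the kinase Raf and relieves repression by the protein Capicua, and it helps to set the limits of the mesoderm and to form the endoderm of the gut. Bulk chromatin from whole embryos averages over all cells, so a weak peak cannot be told apart as a site bound in few cells or bound weakly in many. Sites of transcription factors are best known from promoters and enhancers, although some exons are also known to act as enhancers.

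Summit sequences are shown for 3 strong exonic peaks of each class that both replicates held. They show the bases at these summits only and are not a sample of the base composition of the classes. Each is 29 bases long, centred on the summit and read on the strand of the host gene (the gene with the exon) from the Release 6 genome, which shares its arms with dm6. A capital letter marks the summit base, except where a searched word was found, which is then in capitals instead. In 5′ UTRs these are baz (chrX:17178685-17178713), cic (chr3R:20253328-20253356) and Raf (chrX:2296294-2296322), all on the plus strand.
baz: gttaatttagttatGtttttgtatataca
cic: agggctttttgcttTgcttactccttttc
Raf: gtcttaaagtcaaaAtcttacaaatcgca
In coding exons they are Pde1c (chr2L:11816573-11816601), l(3)mbn (chr3L:6124801-6124829) and Stt3A (chrX:21053193-21053221), all on the minus strand, and the capitals at l(3)mbn are the donor splice site word GTAAGT.
Pde1c: agagtgagccagctGcggagccggcagat
l(3)mbn: tacaccaaccggaaatgtaccctGTAAGT
Stt3A: gccacacgcttgttCtctgtgctgcgatt
In 3′ UTRs they are APC7 (chrX:6599471-6599499, plus strand), Cals (chr4:1113350-1113378, minus strand) and by (chr3R:9528628-9528656, minus strand).
APC7: caatagtcctttatCatccattgtctaaa
Cals: ttagaaattaatagAacataaacttttta
by: gattcatatttgttTatatgcccaagttg
In noncoding RNA exons they are lncRNA:CR46035 (chr3R:17704388-17704416, plus strand), lncRNA:CR44619 (chrX:12754507-12754535, plus strand) and lncRNA:CR42719 (chr3L:615636-615664, minus strand), where the capitals are the polyadenylation word AATAAA.
lncRNA:CR46035: attaaattattgttTctgatcaagtcact
lncRNA:CR44619: ttaagctaactataCcataaaacaaatta
lncRNA:CR42719: ttactagtatggcAATAAAttaaaatttt

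The 5′ UTR class was led by baz, which encodes Bazooka, the Par-3 scaffold of apical cell polarity. Its peak at chrX:17178530-17178863 had 1022 in the combined list (579 for replicate 1, 454 for replicate 2), and was rank 59 of the 7220 peaks. Replicate values here are those of the strongest candidate of that replicate that overlaps the peak, and the scales of the lists may differ. The summit lay in an internal exon of 3624 bp, 18693 bp from the nearest start of baz, and was exonic in 2 of the 4 baz transcripts that span it. A second peak in the same exon, with its summit 1968 bp away, had 162 in the combined list (104 for replicate 1, 60.0 for replicate 2). Both baz peaks were held by both replicates, that is, they overlapped a peak of each replicate's own thresholded list by at least 1 bp.

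The peak in cic, which encodes the repressor Capicua, had 341 in the combined list (202 for replicate 1, 148 for replicate 2), with its summit 572 bp from a start of cic and exonic in 1 of the 2 transcripts that span it. The peak in Raf, the kinase downstream of Torso, had 255 in the combined list (126 for replicate 1, 121 for replicate 2), 842 bp from its start in an internal exon of 200 bp. Other hosts of strong 5′ UTR peaks were Fbl6, an F-box protein gene (405, with 226 in replicate 1 and 178 in replicate 2), eas, the ethanolamine kinase gene (236, with 158 in replicate 1 and 81.6 in replicate 2), and Pdp1, a bZIP transcription factor gene (201, with 132 in replicate 1 and 67.7 in replicate 2). All of these were held by both replicates.

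The coding exon class had few strong peaks, and 6 of its 45 were held by both replicates. The highest was in otp, the orthopedia homeodomain transcription factor gene, at chr2R:20884451-20884739, with 478 in the combined list (272 for replicate 1, 210 for replicate 2). The summit in otp was exonic in all 9 transcripts that span it, in the last exon, 165 bp inside the exon edge. Pde1c, a calmodulin-dependent cyclic nucleotide phosphodiesterase gene, followed with 388 in the combined list (211 for replicate 1, 172 for replicate 2), also in the last exon and exonic in all 9 transcripts. The summit in l(3)mbn (327, with 205 in replicate 1 and 118 in replicate 2) lay 9 bp inside the edge of an exon of 63 bp, and the peak, 225 bp wide, extends beyond this exon. Stt3A, which encodes a catalytic subunit of oligosaccharyltransferase, had 154 in the combined list (83.6 for replicate 1, 69.3 for replicate 2). The remaining coding peaks held by both replicates were in CG4822 (116, with 55.3 in replicate 1 and 58.6 in replicate 2) and CG31259 (108, with 74.3 in replicate 1 and 43.2 in replicate 2). Only otp, Pde1c and l(3)mbn were among the strongest 20% of the combined list, which start at a signal value of 196.

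In 3′ UTRs the strongest peak lay in APC7, a subunit gene of the anaphase-promoting complex, with 682 in the combined list (365 for replicate 1, 318 for replicate 2). The nearest start was that of the neighbouring gene pigs, 577 bp away, while the start of APC7 was 2302 bp away. Cals, the calsyntenin gene, held the only exonic peak on chromosome 4, with 408 in the combined list (200.0 for replicate 1, 195 for replicate 2), and its summit lay 9601 bp from any start. The peak in by, which encodes the tensin blistery at integrin adhesions, had 368 in the combined list (192 for replicate 1, 161 for replicate 2). CG7872 (346, with 200.4 in replicate 1 and 144 in replicate 2), CG33307 (310, with 163 in replicate 1 and 137 in replicate 2) and scf (303, with 158 in replicate 1 and 138 in replicate 2) completed the 6 strongest of the class. CG33307 lies within an intron of CenG1A, so its 3′ UTR peak is intronic with respect to that gene. For 42 of the 75 peaks in 3′ UTRs the nearest start belonged to another gene, against 3 of the 50 in 5′ UTRs, 16 of the 45 in coding exons and 26 of the 75 in other exons. The median distance to a start of the host was 4098 bp in 3′ UTRs and 838 bp in 5′ UTRs. The same shares over all bases of these classes were not counted, so the contrast describes where the exons lie.

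The strongest exonic peak of all lay in a noncoding RNA, lncRNA:CR46035, at chr3R:17704247-17704576, with 1034 in the combined list (605 for replicate 1, 433 for replicate 2). This single-exon gene of 1887 bp lies within an intron of osa, which encodes a subunit of a SWI/SNF chromatin remodelling complex, and 20 of the 75 peaks of the class lie in an intron of another gene in the same way. The next noncoding hosts were lncRNA:CR44619 (428, with 243 in replicate 1 and 187 in replicate 2) and lncRNA:CR42719 (339, with 214 in replicate 1 and 127 in replicate 2). Further down, lncRNA:CR44365 had 277 (128 in replicate 1 and 135 in replicate 2), and lncRNA:CR44603 had 268 (157 in replicate 1 and 112 in replicate 2). In 40 of the 75 the summit lay in the only exon of a host transcript, taken as the transcript with the longest exon at the summit. Other transcripts of the same gene may have more exons.

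**Figure D1:**
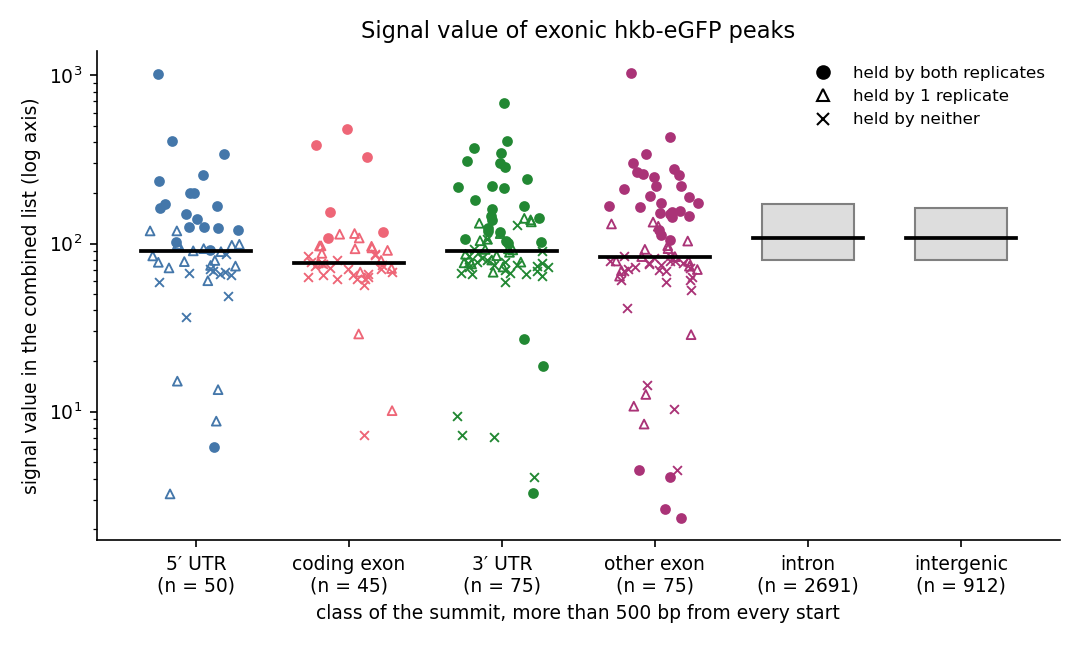
Signal value in the combined list (log axis) of each exonic peak, by class of the summit; filled circles are peaks held by both replicates, triangles by 1 and crosses by neither, horizontal lines are medians and grey boxes the middle 50% of intronic and intergenic peaks. The medians are 90.8 in 5′ UTRs, 76.9 in coding exons, 89.8 in 3′ UTRs and 83.5 in other exons, below 108 in introns and in intergenic sequence.

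A single noncoding gene, lncRNA:CR43334, held 7 of the 245 peaks, more than any other host. This gene of 15466 bp on 3L is the host of mir-ban, the growth-promoting microRNA bantam. From its start towards mir-ban the signal values in the combined list were 103, 150, 221, 300, 146 and 248, at 1145, 1822, 5294, 6382, 8197 and 12341 bp, and the last peak, at 14532 bp and 719 bp past the middle of mir-ban, had 78.8. The middle 5 of the 7 were held by both replicates, the first by replicate 1 and the last by neither. In replicate 1 the 7 values ran between 44.4 and 159, and in replicate 2 between 31.7 and 137, with the highest at the same site in both. The gene holds 8 listed peaks in all.

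**Figure D2:**
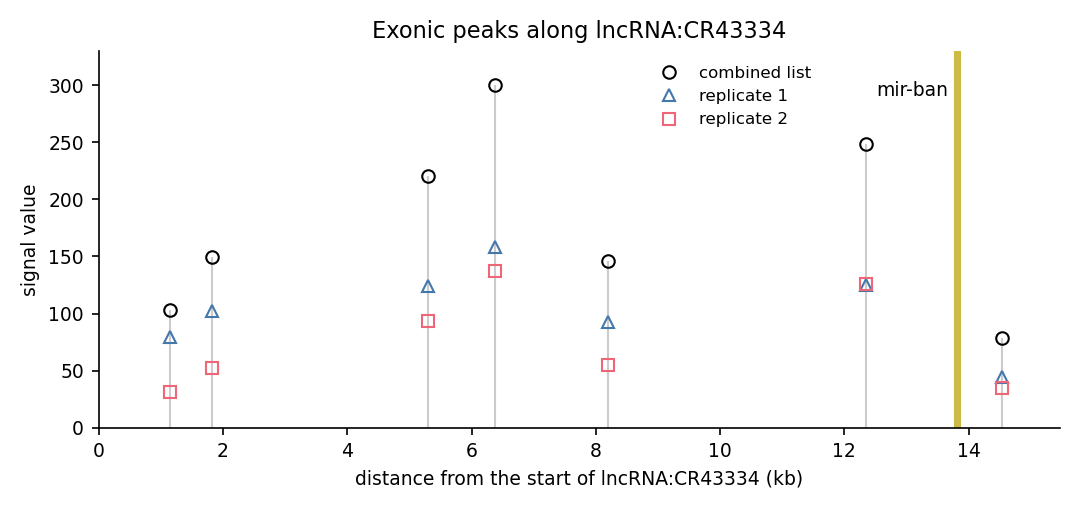
Signal values of the 7 exonic peaks of lncRNA:CR43334 (circles for the combined list, triangles for replicate 1, squares for replicate 2) by distance of the summit from the start of the gene in kb; the vertical band is mir-ban. The highest value, 300 in the combined list (159 for replicate 1, 137 for replicate 2), lies 6382 bp from the start.

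Other hosts of several exonic peaks were lncRNA:CR43126 with 4 and lncRNA:CR46006, which contains mir-276a, with 3. In all, 26 of the 211 host genes held at least 2, and 12 of 201 did when peaks that overlap a listed peak of higher signal value were left out, an alternative chosen after seeing the data. The 4 values of lncRNA:CR43126 in the combined list were 127, 112, 78.8 and 12.7, and 1 of its peaks was held by both replicates. Those of lncRNA:CR46006 were 78.8, 78.4 and 28.7, and none was held by both. lncRNA:CR43650, which contains mir-8, held 2 peaks with 134 and 70.0, neither of them held by both replicates.

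Some exonic peaks were shoulders of a stronger listed peak. Of the 245, 26 (10.6%) overlapped a listed peak with a higher signal value, and their own signal values lay between 2.33 and 28.98. Of the 27 exonic peaks with a signal value under 40, 26 were of this kind, with another listed summit 199 to 236 bp away, and the exception was the peak in the 5′ UTR of corn, with 36.6. In TAF1B, for instance, a 3′ UTR peak of 27.2 lay beside one of 182, and both overlapped the same candidate in each replicate, with 94.6 in replicate 1 and 95.6 in replicate 2. The replicate values of a shoulder can therefore be those of its neighbour, and the other shoulders were not compared with their neighbours in this way. Among intronic and intergenic peaks away from promoters, 202 of 3603 (5.61%) overlapped a higher listed peak.

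The thresholded list of each replicate was then searched at every exonic peak. Both replicates held 83 of the 245 exonic peaks (33.9%, 28.0 to 40.2), against 1737 of 3603 intronic and intergenic peaks away from promoters (48.2%, 46.6 to 49.9) and 47.9% of all listed peaks. Neither replicate held 87 exonic peaks (35.5%, 29.5 to 41.9), against 22.6% of intronic and intergenic peaks and 22.2% of all. Replicate 1 alone held 56 and replicate 2 alone 19. Without the 26 shoulders, 75 of 219 (34.2%) were held by both, against 48.8% of intronic and intergenic peaks counted in the same way. These peaks come from 1 pair of libraries, so the difference in shares is a description and was not tested over samples.

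Among the classes, coding exons had the lowest share held by both, 6 of 45 (13.3%, 5.05 to 26.8), and 23 were held by neither (51.1%, 35.8 to 66.3). In 5′ UTRs 19 of 50 were held by both and 10 by neither, in 3′ UTRs 27 of 75 by both and 29 by neither, and in other exons 31 of 75 by both and 25 by neither. The highest exonic peak held by neither was in the 3′ UTR of CG5984, with 129 in the combined list (72.6 for replicate 1, 50.5 for replicate 2). The authors' conservative list, which also combines the replicates, contained 171 of the 245 (69.8%), against 85.1% of intronic and intergenic peaks.

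**Figure D3:**
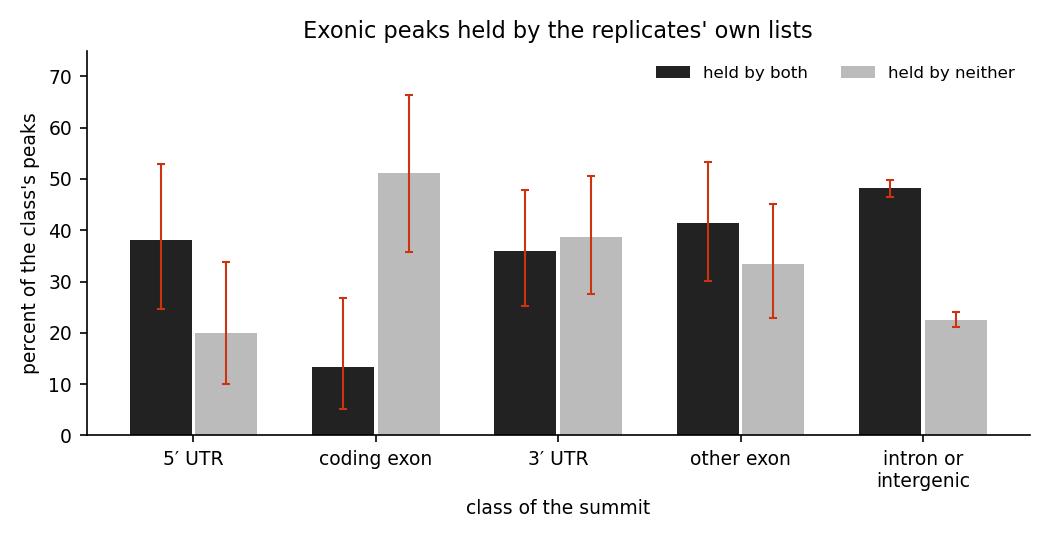
Percent of the peaks of each class that both replicates (black) or neither replicate (grey) held in their own thresholded lists, with 95% exact binomial intervals that cover counting error over peaks only. Coding exons have 13.3% held by both and 51.1% by neither, and intronic and intergenic peaks away from promoters 48.2% and 22.6%.

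Signal value and holding moved together. The strongest 20% of the combined list contained 33 exonic peaks (13.5% of the 245), all of them held by both replicates, and the weakest 20% contained 86 (35.1%). Within the second 20% both replicates held 25 of 33 exonic peaks (75.8%), against 87.4% of intronic and intergenic peaks, and within the middle 20% 16 of 35 (45.7%), against 36.5%. Within the next 20% they held 1 of 58 (1.72%), against 4.65%. The 8 of 86 held in the weakest 20% were all shoulders.

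The median signal value of the exonic peaks was 84.7, with a range of 2.33 to 1034, against 108 for intronic and intergenic peaks away from promoters, a ratio of 0.784. In each replicate's own list the ratio was closer to 1, at 0.932 in replicate 1 (71.1 against 76.3) and 0.956 in replicate 2 (65.2 against 68.3). Coding exons had the lowest ratio in all 3 lists, with 0.712 in the combined list (0.679 for replicate 1, 0.799 for replicate 2), where they held 45, 24 and 15 peaks. The order of the other classes was not kept: other exons had 0.773 in the combined list (1.26 for replicate 1, 1.02 for replicate 2).

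At the site of every exonic peak each replicate had at least 1 candidate, so the 2 values could be compared for all 245. Replicate 1 was the higher in 197 and replicate 2 in 48, with medians of 53.7 and 40.7. Among intronic and intergenic peaks with a candidate in both replicates, replicate 1 was the higher in 2823 of 3572. The median ratio of replicate 1 to replicate 2 was 1.34, against 1.28 for intronic and intergenic peaks. The scales of the 2 lists may differ, so the lead of replicate 1 is not read as a trait of exonic peaks. Across the 245 peaks the Spearman correlation between the replicates was 0.620, and 0.624 across the 219 that are not shoulders. It was 0.678 in 5′ UTRs (n = 50), 0.291 in coding exons (n = 45), 0.740 in 3′ UTRs (n = 75) and 0.676 in other exons (n = 75). Peaks of 1 pair of libraries are not independent, and the classes differ in their range of signal, so these coefficients only describe the libraries.

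**Figure D4:**
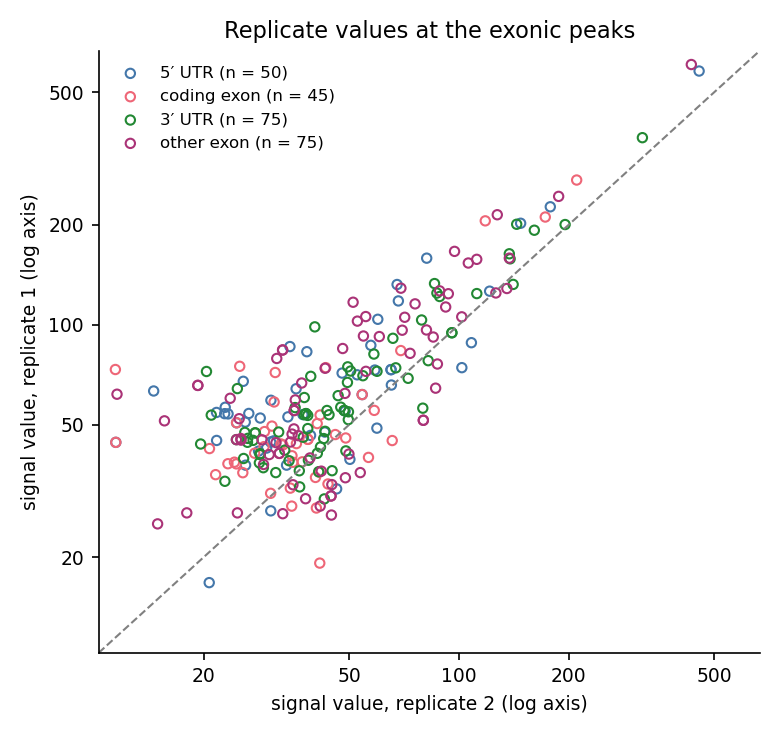
Signal value of the strongest overlapping candidate in replicate 1 against that in replicate 2 (both log axes) for the 245 exonic peaks, coloured by class, with the line of equal values. Most points, 197 of 245, lie above the line, and the points at baz and lncRNA:CR46035 lie at the top right. Replicate 1 was also the higher in 2823 of 3572 intronic and intergenic peaks, which are not drawn.

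Exonic sequence more than 500 bp from a start makes up 19.8% of the bases of the main arms and held 3.39% of the peaks. Per Mb there were 9.27 exonic peaks, against 50.9 in introns and 25.01 in intergenic sequence. The classes were far apart in this density: coding exons had 2.45 peaks per Mb, 3′ UTRs 12.6, 5′ UTRs 47.9 and other exons 68.4. Coding exons supply 13.7% of the bases of the arms and 45 of the 245 peaks. Replicate 1's own list had 148 exonic peaks of 5260 (2.81%) and replicate 2's 106 of 4347 (2.44%).

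Exons did not lack candidates. The ranked list behind the combined list, which also holds candidates that failed the threshold on the irreproducible discovery rate (IDR), has 24526 exonic candidates away from promoters among the 94687 on the main arms, which is 25.9%. Of the exonic candidates 245 are in the thresholded list (0.999%), against 7.63% of all candidates and 7.24% of intronic and intergenic ones. Coding exons had 18304 candidates, of which 0.246% were listed, 3′ UTRs 1.75%, 5′ UTRs 4.56% and other exons 8.92%. Each replicate alone gave the same order at the low end, with 0.150% of coding candidates listed in replicate 1 and 0.112% in replicate 2, against 5.69% and 5.39% of their intronic and intergenic candidates.

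The listed coding peaks and the unlisted coding candidates were alike in base composition. Both had a median GC content of 54.5% in the 101 bp around the summit. In other exons the listed peaks had 35.6% and the unlisted candidates 44.6%, and in introns 32.7% and 41.6%. Listed and unlisted values were closer in 5′ UTRs, with 46.0% and 47.5%, and in 3′ UTRs, with 35.6% and 36.6%. Over all 245 exonic peaks the median was 41.6%, against 32.7% in intronic and intergenic peaks.

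The lower share of listed candidates in coding exons was also seen among candidates of like GC content. Between 35% and 45% GC, 0.358% of 1675 coding candidates were listed, against 1.75% in 3′ UTRs, 4.09% in 5′ UTRs, 8.33% in other exons and 4.86% in introns. At 55% GC or more it was 0.248% of 8863 coding candidates, against 3.14% in introns. Under 35% GC, where 16.9% of intronic candidates were listed, 20.1% of those in other exons were, 7.75% in 5′ UTRs, 2.06% in 3′ UTRs and 0 of 144 in coding exons, which allows a share of up to 2.08%. Coverage and mappability of these classes were not examined.

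**Figure D5:**
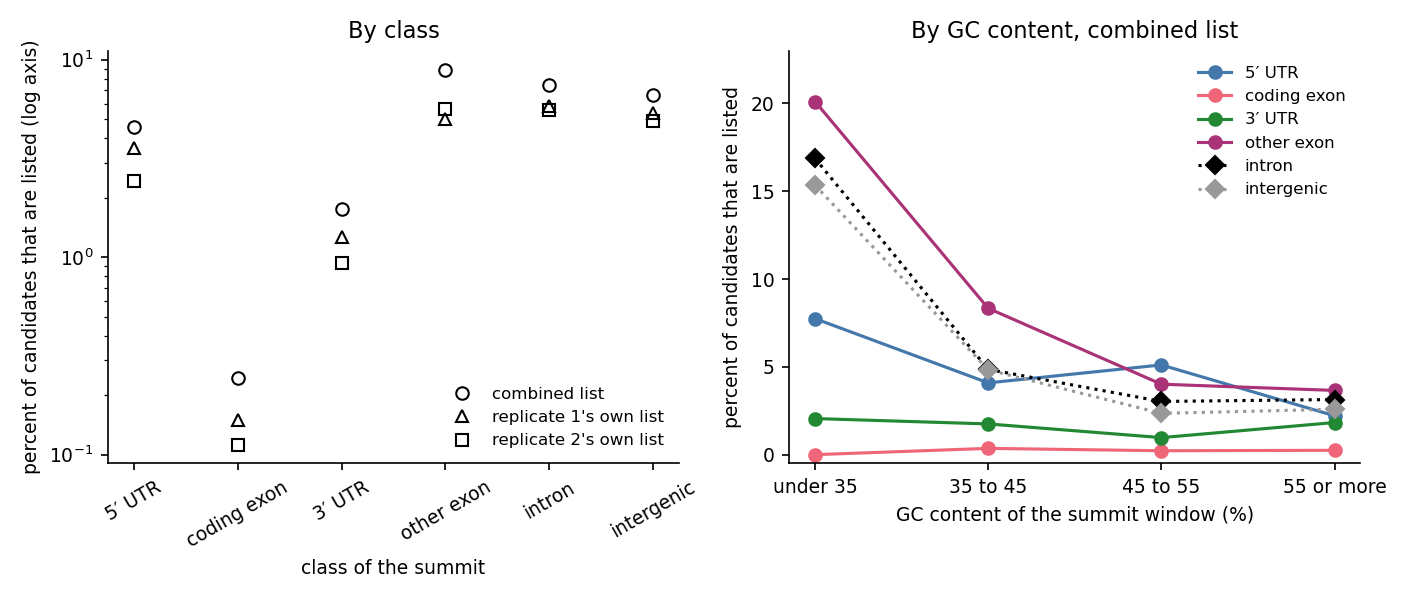
Left, percent of candidates that are in the thresholded list (log axis), by class of the summit, for the combined list and each replicate's own list. Right, the same percent in the combined list within 4 ranges of GC content of the 101 bp around the summit; coding exons lie at or below 0.358% in every range.

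Within the exonic peaks, GC content moved with holding and with signal. The 83 peaks held by both replicates had a median of 33.7% GC, and the 87 held by neither had 44.6%. Coding exons were 6 of the 83 and 23 of the 87, so the pooled gap mixes classes. Held by both and by neither, the medians were 43.6% and 46.5% in 5′ UTRs, 32.7% and 39.6% in 3′ UTRs, and 31.7% and 39.6% in other exons. Intronic and intergenic peaks away from promoters moved the same way, with 30.7% and 35.6%. Across the 245 exonic peaks the Spearman correlation of GC content with signal value was -0.35, and -0.30 across intronic and intergenic peaks. By class it was -0.32 in 5′ UTRs, -0.03 in coding exons, -0.23 in 3′ UTRs and -0.50 in other exons. The 6 coding peaks held by both replicates ranged from 40.6% GC at CG4822 to 65.3% at Pde1c, with a median of 50.99%, and the 23 held by neither had a median of 53.5%. The strongest 5′ UTR peak, at baz, had 20.8% and the strongest 3′ UTR peak, at APC7, 23.8%. The part of base composition in the signal values was not tested.

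The exonic peaks were closer to starts than the other peaks away from promoters, with a median distance of 1205 bp from summit to nearest start, against 2847 bp. The distance was 838 bp in 5′ UTRs, 1196 bp in other exons, 1279 bp in coding exons and 1564 bp in 3′ UTRs. For 87 of the 245 the nearest start belonged to a gene other than the host. Distances and nearest starts were not counted over all exonic bases, so neither can be told apart from where exons lie. The host gene also had a listed peak within 500 bp of one of its own starts for 113 (46.1%), and another listed peak lay within 1000 bp of 85. The 85 include the 26 shoulders. The same shares over all genes and all listed peaks were not counted, so these 2 counts only describe the members. Of the 245, 196 were exonic in every host transcript that spans them, but 21 of the 50 in 5′ UTRs were.

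Peaks lay close to the limit of 500 bp on both sides. Nearest to it on the inside were the 5′ UTR peaks of tou, at 508 bp, with 98.0 in the combined list (67.6 for replicate 1, 25.7 for replicate 2), and of Pka-C1, at 512 bp, with 15.2. The tou summit, in an internal exon, is also coding in another transcript and counts as 5′ UTR by the class order. The Pka-C1 peak was a shoulder with another listed summit 201 bp away. The next were lncRNA:CR45940 at 518 bp with 165 and Fbl6 at 522 bp with 405, both held by both replicates. Just outside were 2 exonic peaks at 500 bp, near lwr with 13.95 and near lncRNA:CR45668 with 68.9. The summit of the peak near lwr lay 200 bp from that of a stronger member, the coding exon peak of lwr with 63.7.

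Of 113 annotated genes in a list of embryonic patterning and signalling genes, 7 were hosts, and of all 18164 annotated genes 211 were (1.16%). The list was chosen with earlier results of these data known, and gene and exon lengths were not compared. The 2 counts are therefore descriptions and are not read as an excess at patterning genes. Besides cic and Raf the 7 hosts were Mef2, srp, ftz-f1, klar and hth. The 5′ UTR peak of Mef2, the muscle differentiation factor, had 150 in the combined list (86.7 for replicate 1, 57.4 for replicate 2), and both held it. The peaks in srp, the GATA factor of endoderm and blood (98.9, with 47.6 in replicate 1 and 42.9 in replicate 2), and in ftz-f1, a nuclear receptor and cofactor of Fushi tarazu (90.5, with 59.3 in replicate 1 and 30.6 in replicate 2), were held by replicate 1 only. The coding peak in klar, which encodes a protein that links nuclei to microtubules, had 93.1, with 39.9 in replicate 1 and 56.5 in replicate 2, and was held by replicate 2 only. The 3′ UTR peak in hth, a Hox cofactor gene, had 66.1, with 37.2 in replicate 1 and 29.1 in replicate 2, was held by neither and lay 29251 bp from any start, the greatest distance among the 245. The other genes of the list had no exonic peak away from promoters.

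Ribosomal protein genes supplied 2 hosts of 88, RpS29 (77.8) and RpL18 (72.7), both with 3′ UTR peaks that neither replicate held. None of 115 histone genes, 179 chemoreceptor genes or 70 cuticle protein genes was a host, against 1.16% of all 18164 genes. At so low a share, lists of this size could hold few hosts or none. By gene type the hosts were 156 of 13945 protein-coding genes (1.12%), 53 of 3261 noncoding RNA genes (1.63%) and 2 of 268 pseudogenes (0.746%). Of 690 genes for tRNAs, rRNAs, snRNAs and snoRNAs none was a host. By the rule, a gene whose exons all lie within 500 bp of a start cannot be a host, and gene lengths were not compared. The counts of 0 may follow from the rule for such genes and are not read as a lack of binding.

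Words of known sites were searched on both strands in the 101 bp around each summit. The core published for the Huckebein zinc fingers, CACGCCC, was in 4 of the 245 windows (1.63%, 0.447 to 4.13), against 55 of all 7220 (0.762%). The hosts were numb (79.3), CG13737 (76.9), tai (75.4) and blot (61.5), 3 of them with coding summits, and none of these 4 was held by both replicates. CAGGTA, the word of the early activator Zelda, was in 3 windows (1.22%), against 2.09% of all. In the replicates' own lists it was in 3 of 148 exonic windows (2.03%) against 2.02% of all for replicate 1, and in 2 of 106 (1.89%) against 1.96% of all for replicate 2. In the combined list, 2 of the 3 hosts, CG7872 and Raf, are among the strong peaks above.

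The GAGA factor word GAGAGA was in 20 exonic windows (8.16%, 5.06 to 12.3), against 5.26% of all, and in 8 of the 50 in 5′ UTRs (16%, 7.17 to 29.1). The direction was not kept in the replicates' own lists: it was in 10 of 148 exonic windows of replicate 1 (6.76%), against 4.96% of all, and in 2 of 106 of replicate 2 (1.89%), against 4.42% of all. CGATA, the word of the boundary protein BEAF-32, was in 28 (11.4%), against 12.6%. TATCGATA, which contains CGATA and is the DNA replication-related element of promoters, and GGTCACAC, a core promoter word, were in none of the 245, which allows a share of up to 1.22%, against 0.789% of all for each. Among intronic and intergenic peaks away from promoters these 2 words were in 0.0833% and 0.250%. CACACACA was in 10 (4.08%), against 2.30%, and the donor splice word GTAAGT in 9 (3.67%), against 3.89%. AATAAA was in 57 (23.3%), against 28.4%, with 22 of 75 in 3′ UTRs, 22 of 75 in other exons and 1 of 45 in coding exons. A word in a window is a description of the letters and not of what binds there.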

How the data were processed

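ChIP-seq peak lists of 2 biological replicates of hkb-eGFP embryos were used, with chromatin sonicated to 200 to 800 bp, and mapped to dm6, per the labels. The sources used here name neither the aligner nor the peak caller. The deposited lists carry for each peak a signal value, used as a score with no stated unit, and a −log10 q-value that the authors computed. Ranked lists also hold a deposited −log10 IDR, and every thresholded peak has at least 2 (IDR at most 0.01). Of all listed peaks 78.9% are 384 bp wide. Read totals were not used here, so depth is unknown.

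Summits were classed on Ensembl release 115 (18164 genes and 35497 transcripts without transposable elements) in the order 5′ UTR, coding exon, 3′ UTR and other exon, with Python 3.11.15, numpy 2.4.6, pandas 2.3.3 and scipy 1.17.1. Intervals are exact binomial (Clopper-Pearson, 95%), and the limit for a count of 0 is 3 counts. A replicate's value at a peak is that of its strongest overlapping candidate. With 1 group no test between conditions exists, and none was run over peaks. The class and overlap steps were tested on simulated peaks. Named peaks are the 6 strongest per class held by both replicates, those in patterning genes, those at the 500 bp limit, the strongest held by neither, and hosts of several peaks or of searched words, the last chosen after their values were seen. Members and lists were chosen with earlier results of these data known. Alternatives tried were the conservative list, each replicate's own list, the stronger peaks, other promoter limits, overlap rules, starts, class orders and word windows, and, added after seeing the data, leaving out peaks that overlap a higher listed peak, 2 further words and ranges of GC content. Sequences on 1 arm are not reported here.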

Additional observations from a re-analysis of the deposited data

How the results depend on the processing

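No paired analysis was possible because there is 1 group. Of 105 recomputed values for 17 results, 72 stayed within their interval or the spread between replicates, and 33 moved. Each replicate's own list, with the other left out, gave an exonic share of 2.44% to 2.81%, a signal ratio of 0.932 to 0.956 and 56.8% to 78.3% of its exonic peaks in the other's list. Its share of windows with CACGCCC lay between 0 and 1.35%, and with GAGAGA between 1.89% and 6.76%.

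The conservative list gave a ratio of 0.827. Among the stronger 50% of peaks the exonic share was 2.27%, coding exons were 11.0% of the exonic peaks, the ratio was 1.00 and 82.9% were held by both. Limits of 250 and 1000 bp gave exonic shares of 5.17% and 2.04%, with 27.1% and 10.9% of them in 5′ UTRs and 23.9% and 40.8% in 3′ UTRs, and 1000 bp a ratio of 0.826. Exons of protein-coding genes alone gave 2.37%. The median distance was 1628 bp to protein-coding starts and 1502 bp to starts of the host. Without shoulders, an alternative chosen after seeing the data, the ratio was 0.812. For these the cause was not tested.

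Windows of 100 bp either side, which are longer by construction, held GAGAGA in 15.9%, CGATA in 22.4%, GTAAGT in 9.39% and AATAAA in 38.4%, and the host strand alone held GAGAGA in 4.49%, CGATA in 6.12%, CACACACA in 1.22%, GTAAGT in 1.22% and AATAAA in 16.3%. With depth unknown, a weak exonic site cannot be told from one that too few reads covered.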

Other observations

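Both GCGCCATCT and CAGCAG were searched after the windows had been read, so their counts are descriptions of these windows only. GCGCCATCT, on either strand, was in 4 of the 245 exonic windows (1.63%), against 26 of all 7220 (0.360%). The hosts were otp (478) and Pde1c (388), the 2 strongest coding peaks, with Mef2 (150) and par-1 (65.0), and both replicates held the first 3. CAGCAG, a stretch of glutamine codons when read in frame, was in 23 exonic windows (9.39%), against 4.92% of all, and in 14 of the 45 in coding exons (31.1%, 18.2 to 46.6). Its share in unlisted coding candidates was not counted. The 31.1% therefore cannot be told apart from the share in coding sequence in general. Its coding hosts include InR, the insulin receptor gene (96.9), bun (108), scrib (87.4) and klar (93.1). None of the 14 coding peaks with CAGCAG was held by both replicates, and of all coding peaks 6 of 45 (13.3%) were.

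In the ranked list, 7388 candidates on the main arms had a −log10 IDR of at least 2, and 168 of them are not in the combined thresholded list used here, for a reason that could not be told. Of these 168, 9 were exonic and away from promoters. The strongest lay in lncRNA:Hsromega, the heat shock omega RNA (229), in lncRNA:alphagamma-element:CR32865 (186), and in the 5′ UTRs of spen (153), Ssdp (136), cbt (116) and cwo (105).

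Among the arms, the number of exonic peaks per Mb of exon away from promoters was 11.9 on 3L, 10.1 on X, 8.41 on 3R, 8.34 on 2R, 8.25 on 2L and 2.61 on chromosome 4, where it rests on the 1 peak in Cals.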
